A study of Mus musculus with 24 samples.

Results

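The interferon regulatory factors (IRFs) are a family of transcription factors, and 8 of them, Irf1, Irf2, Irf3, Irf4, Irf5, Irf7, Irf8 and Irf9, were followed here across splenic dendritic cells. Members were chosen by gene symbol: a probe set was used where the only symbol given to it by the platform annotation was that of an IRF, and the probe set with the highest mean over 24 arrays was used where a gene had several. This gave 8 genes of the 19938 with a probe set of their own, and all 8 were among the 11228 genes bright enough to be tested. The arrays measured conventional dendritic cells (cDC) taken from the spleens of female mice 8 to 10 weeks old. The 8 groups, of 3 arrays each, were CD8+ cDC from NOD mice (NOD/ShiLt, a strain that develops autoimmune diabetes) given CpG-A, CD8+ cDC from NOD mice given PBS, CD8+ cDC from B6 mice (C57BL/6) given CpG-A, CD8+ cDC from B6 mice given PBS, and the same 4 combinations for CD11b+ cDC. CpG-A is a synthetic DNA oligonucleotide that activates Toll-like receptor TLR9, PBS is the saline vehicle, and cells were sorted as CD11c+ cells 12 h after the injection. The labels do not say whether the 3 replicates came from separate mice or pools, so the tests see only how far these arrays differ among themselves, which may be technical variation.

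IRFs share a DNA-binding domain that recognises repeats of GAAA, the element known as the interferon-stimulated response element. Some members start the interferon response: Irf3 is held in the cytoplasm until it is phosphorylated, Irf7 is itself induced by interferon and drives type I interferon genes downstream of TLR9, and Irf5 acts with the adaptor Myd88 on inflammatory cytokine genes. Irf9 is the DNA-binding subunit of ISGF3, the complex through which type I interferon acts. Irf1 activates and Irf2 competes for many of the same elements. Irf8 and Irf4 are best known in these cells as lineage factors, Irf8 for the CD8+ cDC (cDC1) and Irf4 for the CD11b+ cDC (cDC2).

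The promoters of 4 members are shown because they belong to the gene with the largest CpG response (Irf7) and to the members with a promoter window that held a motif searched for (Irf1, Irf2 and Irf8). Sequences are from RefSeq on build GRCm38.p6, run 5′ to 3′ on the gene's strand and cover 250 bases before to 50 bases after an annotated start. Capitals mark matches to GAAA, any 2 bases and GAAA (the core of the interferon-stimulated response element), TTCNNNGAA (the core of the STAT-binding GAS element) or GGGA, any base and TTTCC (an NF-kB motif), searched on both strands.
Irf7 promoter, chr7:141266375-141266674, minus strand: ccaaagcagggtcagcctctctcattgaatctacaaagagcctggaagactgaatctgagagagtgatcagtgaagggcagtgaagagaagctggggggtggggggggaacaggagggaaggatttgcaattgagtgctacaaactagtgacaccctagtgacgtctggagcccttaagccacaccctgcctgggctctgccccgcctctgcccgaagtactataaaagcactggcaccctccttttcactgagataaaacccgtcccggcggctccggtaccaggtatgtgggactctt
Irf1 promoter, chr11:53769764-53770063, plus strand: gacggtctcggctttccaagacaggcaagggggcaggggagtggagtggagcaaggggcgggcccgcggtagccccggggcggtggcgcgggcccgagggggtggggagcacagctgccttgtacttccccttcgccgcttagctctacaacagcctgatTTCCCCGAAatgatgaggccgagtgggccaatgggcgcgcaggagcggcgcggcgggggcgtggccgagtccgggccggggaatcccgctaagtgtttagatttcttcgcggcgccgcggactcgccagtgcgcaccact
Irf2 promoter, chr8:46739495-46739794, plus strand: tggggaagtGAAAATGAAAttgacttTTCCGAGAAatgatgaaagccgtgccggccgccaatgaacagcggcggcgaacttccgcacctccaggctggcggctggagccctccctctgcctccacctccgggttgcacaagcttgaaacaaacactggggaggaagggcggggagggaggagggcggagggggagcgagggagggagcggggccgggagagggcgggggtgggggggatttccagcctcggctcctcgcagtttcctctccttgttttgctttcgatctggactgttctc
Irf8 promoter, chr8:120736108-120736407, plus strand: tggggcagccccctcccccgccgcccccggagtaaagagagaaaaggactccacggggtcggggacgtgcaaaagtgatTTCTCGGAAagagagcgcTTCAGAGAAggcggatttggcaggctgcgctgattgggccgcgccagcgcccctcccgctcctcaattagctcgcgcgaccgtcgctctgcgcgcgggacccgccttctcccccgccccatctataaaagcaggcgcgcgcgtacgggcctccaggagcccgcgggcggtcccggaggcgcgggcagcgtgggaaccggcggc
Irf1, Irf8 and Irf9 have 2 annotated windows each and the other members 1. The Irf1 window shown held 1 GAS core, from base -90 to base -82 relative to the start. In the Irf2 window an interferon-stimulated response element core (-241 to -232) stood beside a GAS core (-224 to -216), and the Irf8 window shown held GAS cores at -171 to -163 and -153 to -145. These matches do not overlap each other. The GAS core reads the same on both strands, so its matches have no strand of their own. The interferon-stimulated response element core of Irf2 was on the plus strand. The Irf7 window, the other windows of Irf1 and Irf8, and all windows of Irf3, Irf4, Irf5 and Irf9 had no match to these letters. Of all 32851 promoter windows of the same length, 3.44% held the interferon-stimulated response element core, 8.3% the GAS core and 0.411% the NF-kB motif. A match of letters is a description and not evidence of a bound site.

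The values are log2 expression values, on which a difference of 1 is a 2-fold change, and "log2 value" below means this array reading. Levels of different genes were not compared, because each probe set has its own response. All 8 members lay above the array's own median on 24 of 24 arrays. Differences are given ± SE from limma, fitted on all 24 arrays and adjusted by Benjamini-Hochberg over the 11228 tested genes. The sorted subsets carried their defining markers: under PBS, 10 of 10 tested cDC1 markers were higher and 7 of 7 tested cDC2 markers lower in CD8+ cDC than in CD11b+ cDC, in both strains. The 3 arrays of CD8+ cDC from CpG-A-injected NOD mice stood apart from one another. Their mean correlation with their own group was 0.950 to 0.971, against 0.979 to 0.988 in the other groups. Results that rest on them are given below with each of them left out where that changed a call. Natural killer (NK) cell markers were high in CD11b+ cDC of CpG-A-injected B6 mice. Of the B cell markers, 2 of 6 were higher in NOD than in B6 mice in resting CD8+ cDC and in each subset after CpG-A. In resting CD11b+ cDC 0 of 6 were. These markers are given beside results they touch.

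The injection of CpG-A changed most of the family. Irf7, Irf1 and Irf9 rose in both subsets of both strains, Irf3 fell in 3 of 4 comparisons, and Irf2, Irf4 and Irf8 moved in opposite directions in the CD8+ and CD11b+ subsets in at least 1 strain. Irf5 passed the test in none of the 4 comparisons. For CD8+ cDC of NOD mice 6 of 8 members passed, 4 higher and 2 lower, where 40.7% of all tested genes passed, 15.1% higher and 25.5% lower. For CD8+ cDC of B6 mice 7 of 8 passed, 4 higher and 3 lower, where 57.7% of tested genes passed, 21.1% higher and 36.6% lower. For CD11b+ cDC of NOD mice 6 of 8 passed, 5 higher and 1 lower, where 15.4% of tested genes passed, 9.7% higher and 5.73% lower. For CD11b+ cDC of B6 mice 6 of 8 passed, 5 higher and 1 lower, where 38.9% of tested genes passed, 15.9% higher and 23% lower. The median difference over the 8 members was 0.40 and 0.28 in CD8+ cDC of NOD and B6 mice and 0.45 and 0.49 in CD11b+ cDC of NOD and B6 mice. Over all tested genes the same medians were -0.08, -0.10, -0.04 and -0.07.

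**Figure D1:**
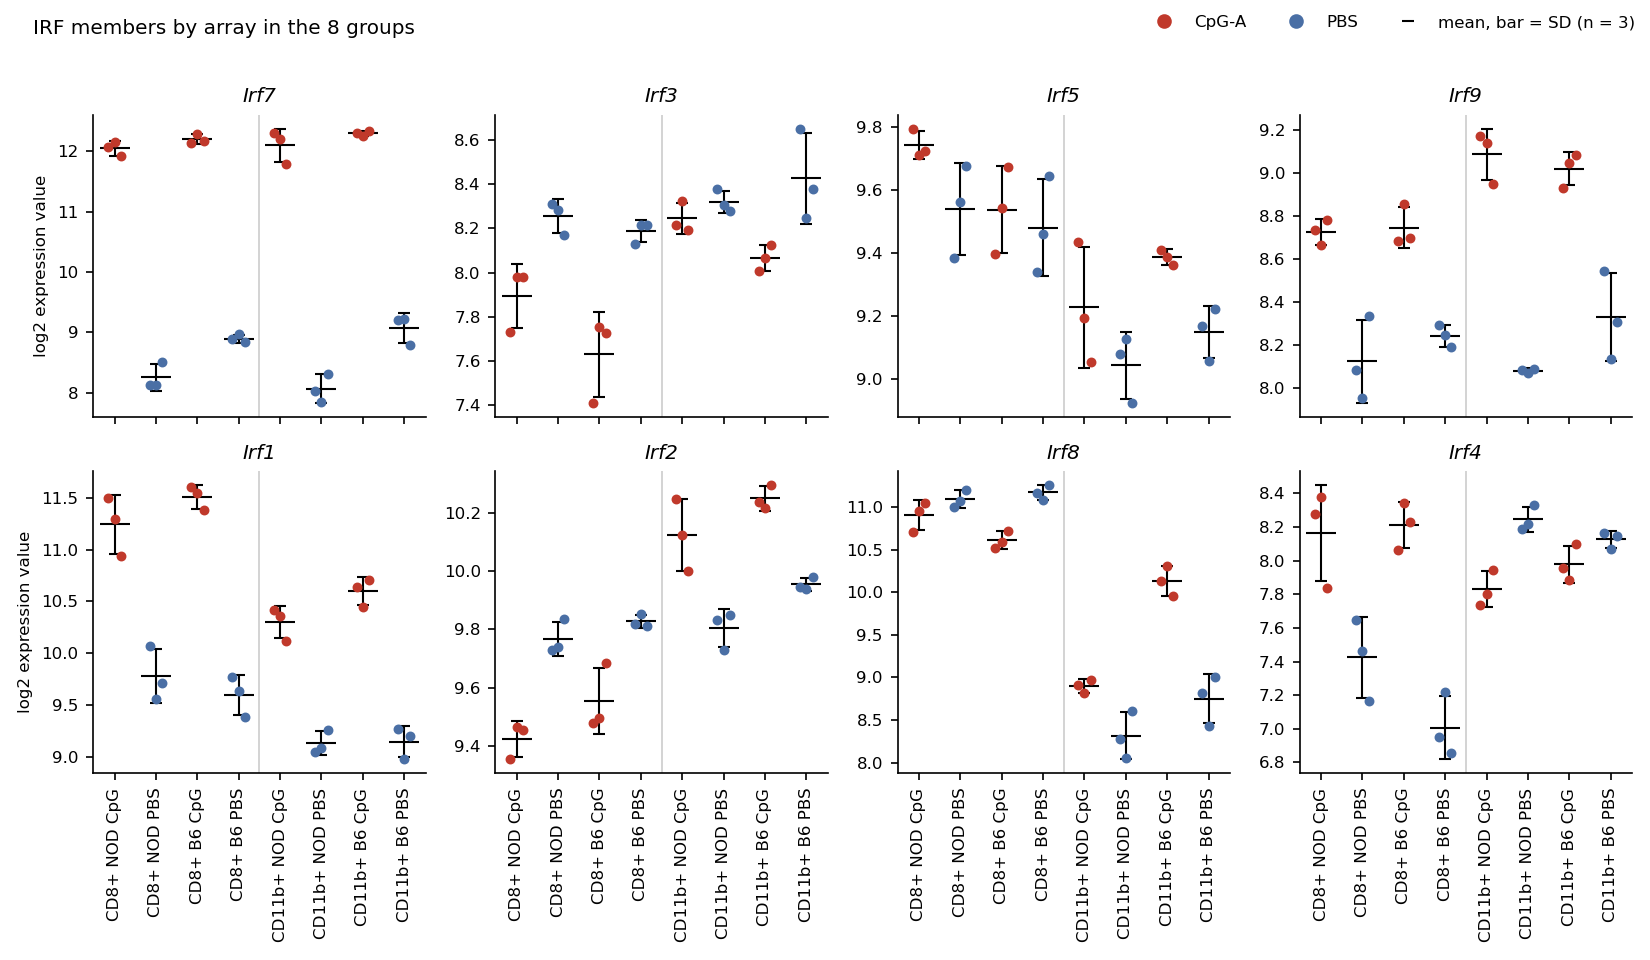
Log2 expression value (vertical axis) of each of the 8 members on each of the 24 arrays, by group; points are arrays, the horizontal line is the mean and the bar the SD (n = 3), red for CpG-A and blue for PBS. The 12 CpG-A arrays of Irf7 lie at 11.78 to 12.34, all above the 12 PBS arrays, while Irf8 and Irf4 depend on the subset.

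Irf7 (probe set 10569102, chr7:141263183-141266499), the interferon-inducible activator of type I interferon genes, changed more than any other member. Its log2 values in CD8+ cDC were 12.07, 12.16 and 11.92 after CpG-A in NOD mice, against 8.12, 8.13 and 8.50 after PBS. In B6 mice this subset read 12.14, 12.29 and 12.17 after CpG-A, against 8.89, 8.96 and 8.83 after PBS. The CpG-A arrays lay far above the PBS arrays in both strains. CD11b+ cDC of NOD mice gave 12.31, 12.20 and 11.78 after CpG-A, against 8.03, 7.84 and 8.31 after PBS. CD11b+ cDC of B6 mice gave 12.31, 12.26 and 12.34 after CpG-A, against 9.20, 9.22 and 8.78 after PBS. No group overlapped its PBS counterpart, and the lowest CpG-A group mean was 2.98 above the highest PBS group mean. The log2 differences were 3.80 ± 0.14 and 3.31 ± 0.14 in CD8+ cDC of NOD and B6 mice (adjusted p 3.35e-15 and 1.17e-14), that is 13.9-fold and 9.91-fold. In CD11b+ cDC they were 4.04 ± 0.14 in NOD mice and 3.23 ± 0.14 in B6 mice (adjusted p 2.64e-15 and 5.59e-14), 16.4-fold and 9.39-fold. Only 19 and 56 tested genes rose further in CD8+ cDC of NOD and B6 mice, and 13 and 47 in CD11b+ cDC of NOD and B6 mice. The 4 CpG-A groups had means of 12.05 to 12.30, and neighbours in that order overlapped. The highest group, CD11b+ cDC of B6 mice, did not overlap the lowest, CD8+ cDC of NOD mice.

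Irf3 (probe set 10552812, chr7:44997648-45002848), the latent factor activated by Tbk1, was lower after CpG-A. For CD8+ cDC of NOD mice the log2 values were 7.73, 7.98 and 7.98 after CpG-A, against 8.31, 8.29 and 8.17 after PBS. For those of B6 mice they were 7.41, 7.75 and 7.73 after CpG-A, against 8.13, 8.22 and 8.22 after PBS. Every CpG-A array of this subset lay below every PBS array of its strain. In the CD11b+ subset, NOD mice read 8.22, 8.32 and 8.19 after CpG-A, against 8.38, 8.31 and 8.28 after PBS, and these overlap. In the same subset, B6 mice read 8.01, 8.07 and 8.13 after CpG-A, against 8.65, 8.25 and 8.38 after PBS, without overlap. Irf3 fell in CD8+ cDC of NOD and B6 mice (-0.36 ± 0.11 and -0.56 ± 0.11, adjusted p 0.0128 and 1.80e-04) and in CD11b+ cDC of B6 mice (-0.36 ± 0.11, adjusted p 0.0131). In CD11b+ cDC of NOD mice the difference of -0.08 did not pass (adjusted p 0.732). The call in CD8+ cDC of NOD mice did not hold without replicate 1 of the CpG-A arrays (-0.28, adjusted p 0.0799) or when only the groups compared were fitted (adjusted p 0.103), and the call in CD11b+ cDC of B6 mice did not hold without replicate 1 of the PBS arrays (-0.25, adjusted p 0.113) or of the CpG-A arrays (-0.33, adjusted p 0.0530). Both calls also depended on the scaling of the arrays: with each array centred on the median of the tested genes, an alternative chosen after seeing the data, they were -0.21 and -0.24 (adjusted p 0.0771 and 0.0511). The same centring gave -0.31 in CD8+ cDC of B6 mice, which passed (adjusted p 0.00674).

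Irf5 (probe set 10536898, chr6:29526130-29541869), the Myd88-linked activator of inflammatory cytokine genes, had the narrowest range of group means in the family, 0.70. Its arrays ran from 8.92 to 9.80 over the whole study. The differences after CpG-A were 0.20 and 0.06 in CD8+ cDC of NOD and B6 mice (adjusted p 0.137 and 0.666) and 0.18 and 0.24 in CD11b+ cDC of NOD and B6 mice (adjusted p 0.290 and 0.0860), each with an SE of 0.11. All were above 0 and none passed. With the same centring Irf5 passed in CD8+ cDC of NOD and B6 mice (0.35 and 0.30, adjusted p 0.0185 and 0.0264) and in CD11b+ cDC of B6 mice (0.36, adjusted p 0.0156). The last of these also passed when only the groups compared were fitted (adjusted p 0.0467). That centring moved the median difference of all tested genes by 0.15, 0.25 and 0.12 in these comparisons.

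Irf9 (probe set 10415319, chr14:55603985-55610030), the ISGF3 subunit, rose in all 4 comparisons. Its log2 values in CD8+ cDC of NOD mice were 8.73, 8.66 and 8.78 after CpG-A, against 8.08, 7.95 and 8.33 after PBS. In B6 mice the same subset read 8.68, 8.85 and 8.70 after CpG-A, against 8.29, 8.25 and 8.19 after PBS. For the CD11b+ subset, NOD mice read 9.17, 9.14 and 8.95 after CpG-A, against 8.09, 8.07 and 8.09 after PBS. B6 mice read 8.93, 9.04 and 9.08 after CpG-A, against 8.54, 8.14 and 8.31 after PBS. No CpG-A array overlapped a PBS array of its own subset and strain. The differences were 0.60 ± 0.11 and 0.50 ± 0.11 in CD8+ cDC of NOD and B6 mice (adjusted p 1.36e-04 and 4.28e-04) and 1.00 ± 0.11 and 0.69 ± 0.11 in CD11b+ cDC of NOD and B6 mice (adjusted p 2.32e-07 and 2.19e-05). Whether the response differed between the subsets was tested directly and did not pass, at -0.40 ± 0.15 in NOD mice and -0.19 ± 0.15 in B6 mice (adjusted p 0.123 and 0.467).

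Irf1 (probe set 10376060, chr11:53770014-53778374), the interferon-gamma-inducible activator, rose in every comparison. On CD8+ cDC arrays of NOD mice its log2 values were 11.50, 11.30 and 10.94 after CpG-A, against 10.07, 9.56 and 9.71 after PBS. On those of B6 mice they were 11.60, 11.55 and 11.38 after CpG-A, against 9.77, 9.63 and 9.38 after PBS. All CpG-A arrays of this subset stood above all of its PBS arrays. The CD11b+ arrays had 10.41, 10.36 and 10.12 after CpG-A, against 9.05, 9.09 and 9.26 after PBS, in NOD mice. They had 10.64, 10.44 and 10.70 after CpG-A, against 9.26, 8.97 and 9.19 after PBS, in B6 mice. The lowest CpG-A array of Irf1 anywhere, 10.12, was above the highest PBS array, 10.07. The differences were 1.46 ± 0.14 and 1.92 ± 0.14 in CD8+ cDC of NOD and B6 mice (adjusted p 2.89e-08 and 1.55e-10) and 1.17 ± 0.14 and 1.45 ± 0.14 in CD11b+ cDC of NOD and B6 mice (adjusted p 1.29e-06 and 2.19e-08). The other probe set of Irf1 (10385870), which the analysis did not use, gave 1.49 and 1.91 in CD8+ cDC and 1.05 and 1.47 in CD11b+ cDC of NOD and B6 mice.

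Irf2 (probe set 10571705, chr8:46739745-46847458), the antagonist of Irf1, moved by small amounts and in opposite directions in the 2 subsets. The log2 values in CD8+ cDC of NOD mice were 9.35, 9.46 and 9.45 after CpG-A, against 9.73, 9.74 and 9.84 after PBS. Those of B6 mice were 9.48, 9.50 and 9.68 after CpG-A, against 9.82, 9.85 and 9.81 after PBS. The CpG-A arrays were the lower ones in this subset, without overlap. Log2 values in CD11b+ cDC of NOD mice were 10.25, 10.13 and 10.00 after CpG-A, against 9.83, 9.73 and 9.85 after PBS. Those of B6 mice read 10.24, 10.21 and 10.30 after CpG-A, against 9.94, 9.94 and 9.98 after PBS. Here the CpG-A arrays were the higher ones, again without overlap. Irf2 fell in CD8+ cDC of NOD and B6 mice (-0.34 ± 0.08 and -0.27 ± 0.08, adjusted p 0.00138 and 0.00489), and rose in CD11b+ cDC of NOD and B6 mice (0.32 ± 0.08 and 0.30 ± 0.08, adjusted p 0.00577 and 0.00461). Each of these calls depended on the scaling of the arrays. Centring on the tested genes gave -0.20 and -0.03 in CD8+ cDC of NOD and B6 mice (adjusted p 0.0531 and 0.763), and quantile normalization gave 0.18 and 0.13 in CD11b+ cDC of NOD and B6 mice (adjusted p 0.0836 and 0.169). In NOD mice the CD8+ call was also lost when the fit used only the groups compared (adjusted p 0.0676), and the CD11b+ call without replicate 1 of the CpG-A arrays (0.26, adjusted p 0.0581). The difference between the subsets in their response, in which a shift common to both cancels, was -0.67 ± 0.11 in NOD mice and -0.57 ± 0.11 in B6 mice (adjusted p 7.59e-04 and 0.00128) and passed under every alternative run.

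Irf8 (probe set 10576034, chr8:120736358-120756694), the cDC1 lineage factor, was the member whose response differed most by subset in B6 mice. In CD8+ cDC of NOD mice its log2 values were 10.71, 10.96 and 11.05 after CpG-A, against 11.004, 11.07 and 11.21 after PBS, and the groups overlap. In CD8+ cDC of B6 mice they were 10.52, 10.59 and 10.73 after CpG-A, against 11.17, 11.09 and 11.26 after PBS, without overlap. The gene fell by 0.56 ± 0.14 in B6 mice (adjusted p 0.00135, with a value of -0.32 and adjusted p 0.0305 after centring on the tested genes), and the difference of -0.19 ± 0.14 in NOD mice did not pass (adjusted p 0.297). The CD11b+ cDC of NOD mice had 8.91, 8.81 and 8.97 after CpG-A, against 8.28, 8.06 and 8.61 after PBS. The CD11b+ cDC of B6 mice had 10.13, 10.31 and 9.96 after CpG-A, against 8.82, 8.43 and 9.001 after PBS. The CpG-A arrays were the higher ones in both strains and overlapped in neither. Irf8 rose by 0.58 ± 0.14 in NOD mice (adjusted p 0.00423) and by 1.38 ± 0.14 in B6 mice (adjusted p 3.24e-08), which is 2.61-fold.

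NK cell markers rose with Irf8 in CD11b+ cDC after CpG-A. The mean log2 value of the 7 NK markers (Ncr1, Klrb1c, Nkg7, Prf1, Gzma, Eomes and Klre1) was 9.24 to 10.5 on the CpG-A arrays of B6 mice, against 5.88 to 6.86 on their PBS arrays, and 7 of 7 rose. In CD11b+ cDC of NOD mice it was 5.94 to 6.22 after CpG-A, against 4.63 to 4.84 after PBS, and 4 of 7 rose. On the 3 CpG-A arrays of B6 mice the marker mean was 9.54, 10.46 and 9.24 where Irf8 was 10.13, 10.31 and 9.96. On their 3 PBS arrays the order was the opposite, with a marker mean of 6.12, 6.86 and 5.88 where Irf8 was 8.82, 8.43 and 9.001. CD8+ cDC had marker means of 4.93 to 6.00 on all 12 arrays. The part of NK cells in the Irf8 result was not tested. In a sorted bulk sample, fewer cells of a type and less RNA per cell cannot be told apart. The cDC1 markers did not rise with Irf8 in CD11b+ cDC of B6 mice as a list. After CpG-A 2 of 10 were higher and 6 of 10 lower, where 15.9% of all tested genes were higher and 23% lower. The same markers fell in CD8+ cDC after CpG-A, with 1 of 10 higher and 8 of 10 lower in each strain. The part of CD8+ cDC in the CD11b+ result of Irf8 was not tested.

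**Figure D2:**
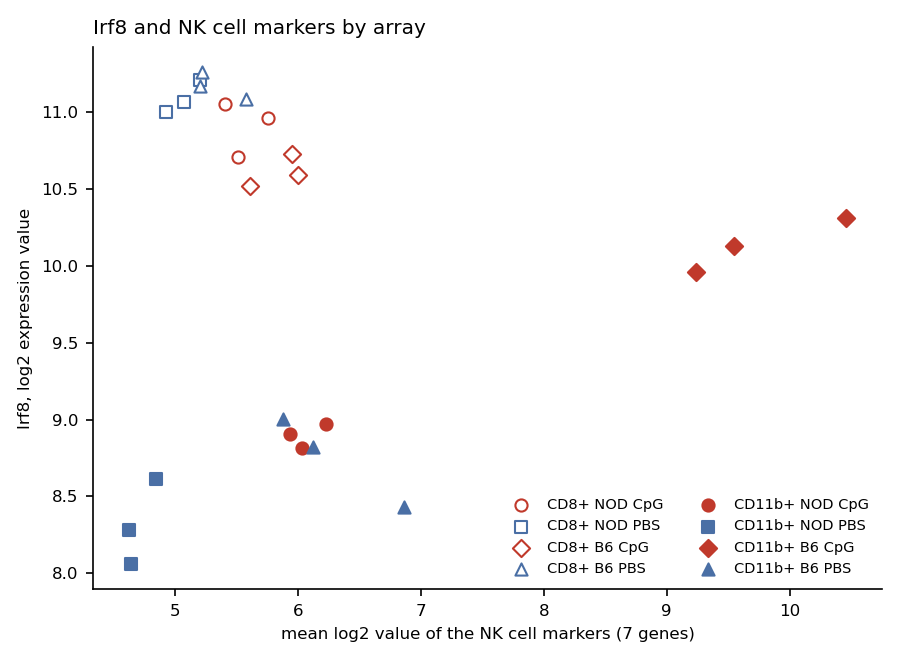
Irf8 log2 expression value (vertical axis) against the mean log2 value of 7 NK cell markers (horizontal axis) on each of the 24 arrays; shape and fill give the group, red for CpG-A and blue for PBS. The 3 arrays of CD11b+ cDC from CpG-A-injected B6 mice stand alone at marker means of 9.24 to 10.5 and Irf8 values of 9.96 to 10.31.

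Irf4 (probe set 10404389, chr13:30749233-30766981), the cDC2 lineage factor, rose in the other subset, the CD8+ cDC. In NOD mice its log2 values in CD8+ cDC were 8.28, 8.38 and 7.84 after CpG-A, against 7.65, 7.46 and 7.17 after PBS. In B6 mice they were 8.07, 8.34 and 8.23 after CpG-A, against 6.95, 7.22 and 6.85 after PBS. Neither strain's groups overlap. CD11b+ cDC of NOD mice had 7.74, 7.80 and 7.95 after CpG-A, against 8.19, 8.22 and 8.33 after PBS. CD11b+ cDC of B6 mice had 7.96, 7.88 and 8.10 after CpG-A, against 8.16, 8.07 and 8.15 after PBS, and overlap. Irf4 rose by 0.74 ± 0.14 and 1.20 ± 0.14 in CD8+ cDC of NOD and B6 mice (adjusted p 1.81e-04 and 1.31e-07), the B6 change being 2.30-fold. It fell by 0.42 ± 0.14 in CD11b+ cDC of NOD mice (adjusted p 0.0413), and the -0.15 ± 0.14 of B6 mice did not pass (adjusted p 0.426). The fall in NOD mice was near the threshold and did not hold without the filter on dim genes (adjusted p 0.0679), with the arrays centred (0.0627 and 0.0690) or without any one of 5 of the 6 arrays compared, the sixth being replicate 3 of the CpG-A arrays (adjusted p up to 0.163).

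**Figure D3:**
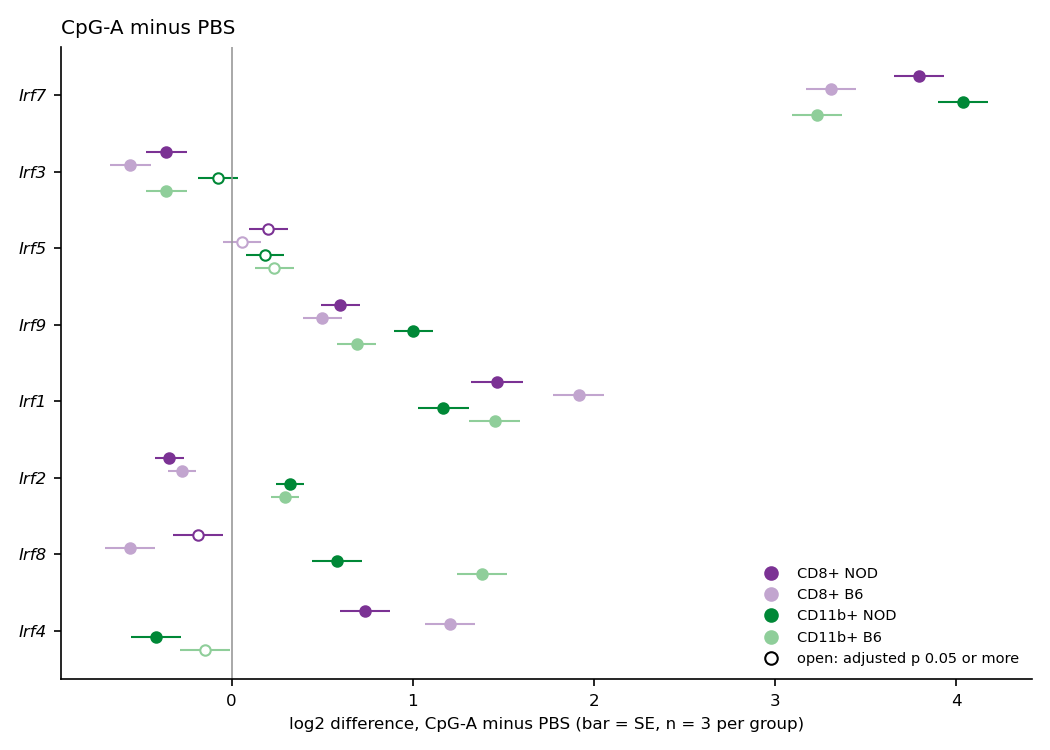
Log2 difference, CpG-A minus PBS (horizontal axis), of each member in the 4 combinations of subset and strain; points are limma estimates, bars the SE (n = 3 per group), and open points have an adjusted p of 0.05 or more. Irf7 lies at 3.23 to 4.04 in all 4, and Irf2 and Irf8 have their CD8+ points on the other side of 0 from their CD11b+ points.

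Between the strains few tests of the family passed. Of 32 tests of NOD against B6, 3 passed: Irf8 was lower in CD11b+ cDC of NOD mice after CpG-A, and Irf7 was lower in both resting subsets of NOD mice. After CpG-A 0 of 8 members passed in limma in CD8+ cDC, where 20.2% of all tested genes did, with Irf3 and Irf8 the 2 members at an unadjusted p under 0.05. In CD11b+ cDC after CpG-A it was 1 of 8, where 23.2% of tested genes passed. In resting CD8+ cDC 1 of 8 passed, where 3.62% of tested genes did, and in resting CD11b+ cDC 1 of 8, where 5.59% did. Whether strain variants lie under any of these probes was not tested.

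After CpG-A the strain differences of Irf7 were -0.15 ± 0.14 in CD8+ cDC and -0.20 ± 0.14 in CD11b+ cDC, and neither passed (adjusted p 0.471 and 0.318). Resting Irf7 was 8.12, 8.13 and 8.50 in CD8+ cDC of NOD mice, against 8.89, 8.96 and 8.83 in those of B6 mice. In resting CD11b+ cDC it was 8.03, 7.84 and 8.31 in NOD mice, against 9.20, 9.22 and 8.78 in B6 mice. Every resting NOD array read lower than every resting B6 array, in both subsets. The differences were -0.64 ± 0.14 in CD8+ cDC and -1.01 ± 0.14 in CD11b+ cDC (adjusted p 0.00645 and 2.73e-05), the second of these 2.01-fold. In resting CD11b+ cDC 4 of 7 NK markers and 3 of 5 tested red pulp macrophage markers were also lower in NOD mice (median differences -1.20 and -1.25), and in resting CD8+ cDC 2 of 6 B cell markers were higher. Their part in the Irf7 results was not tested. Without replicate 1 of the NOD PBS arrays the CD8+ value was -0.58 (adjusted p 0.0503). The test of the strain difference in response gave 0.81 ± 0.20 in CD11b+ cDC (adjusted p 0.0182), a larger rise in NOD mice from a lower resting level, and 0.49 ± 0.20 in CD8+ cDC, which did not pass (adjusted p 0.177). The CD11b+ result was lost, at adjusted p 0.0515 to 0.0598, when any one of 5 arrays was left out: replicates 1 and 2 of the B6 PBS arrays, replicate 2 of the NOD PBS arrays, or replicates 1 and 2 of the NOD CpG-A arrays.

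Irf8 in CD11b+ cDC after CpG-A was 8.91, 8.81 and 8.97 in NOD mice, against 10.13, 10.31 and 9.96 in B6 mice. No NOD array came near the B6 arrays, and the difference was -1.24 ± 0.14 (adjusted p 5.41e-07), 2.36-fold, which held under every alternative run. The NK markers moved the same way: 7 of 7 were lower in NOD mice, with marker means of 5.94 to 6.22 in NOD mice, against 9.24 to 10.5 in B6 mice, and their part in the result was not tested. At rest Irf8 was 8.28, 8.06 and 8.61 in CD11b+ cDC of NOD mice, against 8.82, 8.43 and 9.001 in those of B6 mice. These overlap, and the -0.44 ± 0.14 did not pass (adjusted p 0.0689), although it did without replicate 2 of the B6 arrays (-0.60, adjusted p 0.0120) or replicate 3 of the NOD arrays (-0.58, adjusted p 0.0150), after quantile normalization (-0.46, adjusted p 0.0406) and after centring on the tested genes (-0.42, adjusted p 0.0392). Of the NK markers, 4 of 7 were lower in NOD mice at rest too. The response of Irf8 to CpG-A differed between the strains in CD11b+ cDC by -0.80 ± 0.19 (adjusted p 0.0182), a smaller rise in NOD mice, and 5 of 7 NK markers were lower in the same test. That result was lost, at adjusted p 0.0549 to 0.0639, without replicate 2 of the B6 PBS, B6 CpG-A or NOD CpG-A arrays or replicate 3 of the NOD PBS arrays. In CD8+ cDC the same test gave 0.37 ± 0.19 and did not pass (adjusted p 0.312).

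The remaining members had strain differences between -0.30 and 0.42 in all 4 comparisons, and none passed. The highest was Irf4 in resting CD8+ cDC, at 7.65, 7.46 and 7.17 in NOD mice, against 6.95, 7.22 and 6.85 in B6 mice, a difference of 0.42 ± 0.14 with overlapping groups (adjusted p 0.112, or 0.0391 without replicate 3 of the NOD arrays). B cell markers, 2 of 6 of which were higher in NOD mice in that comparison, averaged 7.63 to 8.77 on the NOD arrays, against 6.98 to 7.74 on the B6 arrays, and their part in the Irf4 value was not tested. The count in CD8+ cDC after CpG-A depended on 1 array. Without replicate 1 of the NOD CpG-A arrays, Irf1 (-0.39, adjusted p 0.0374), Irf3 (0.35, adjusted p 0.0233) and Irf8 (0.39, adjusted p 0.0390) passed between the strains, and so did the strain difference in the response of Irf1 (-0.58, adjusted p 0.0416).

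**Figure D4:**
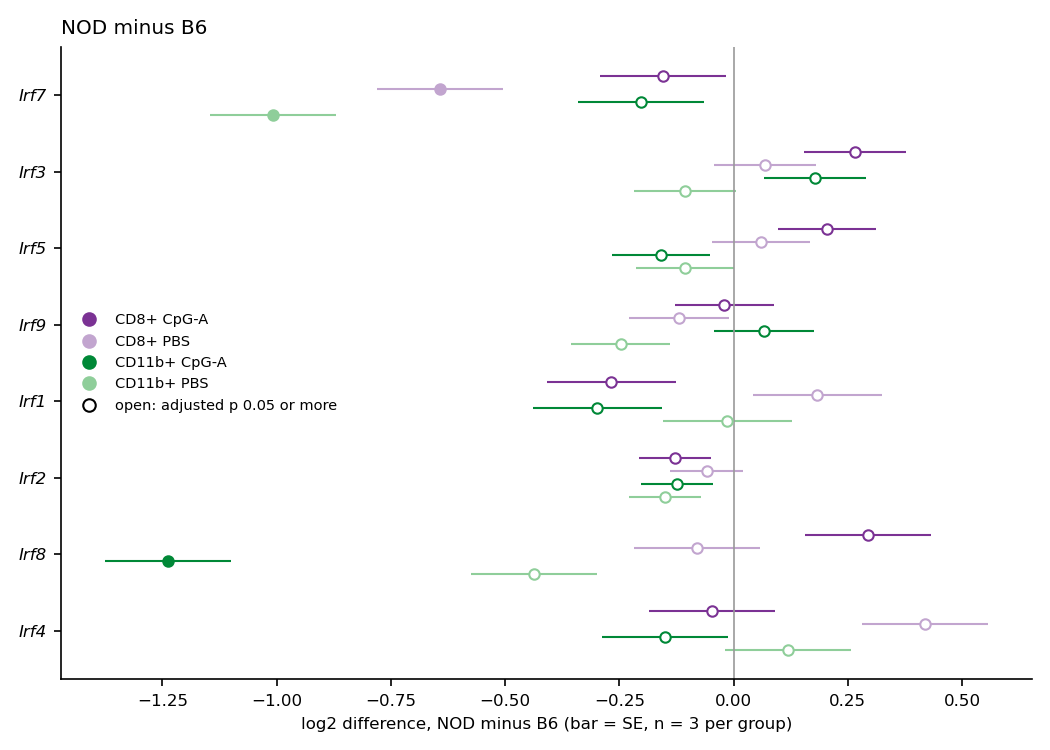
Log2 difference, NOD minus B6 (horizontal axis), of each member in the 2 subsets after CpG-A and after PBS; points are limma estimates, bars the SE (n = 3 per group), and open points have an adjusted p of 0.05 or more. The 3 filled points are Irf7 in both resting subsets (-0.64 and -1.01) and Irf8 in CD11b+ cDC after CpG-A (-1.24).

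Between the resting subsets Irf8 and Irf4 differed most, in opposite directions, and both differences were altered after CpG-A. Irf8 was higher in CD8+ cDC in all 4 comparisons. The difference after CpG-A was 2.01 ± 0.14 in NOD mice and 0.48 ± 0.14 in B6 mice (adjusted p 7.83e-11 and 0.00856). At rest it was 2.78 ± 0.14 in NOD mice and 2.42 ± 0.14 in B6 mice (adjusted p 4.87e-13 and 6.74e-12), 6.86-fold and 5.36-fold. The arrays of CD8+ cDC stayed above those of CD11b+ cDC in each case, but in B6 mice after CpG-A only by a narrow margin, at 10.52 to 10.73 in CD8+ cDC, against 9.96 to 10.31 in CD11b+ cDC. That B6 call did not hold without replicate 3 of the B6 CpG-A arrays of CD11b+ cDC (0.39, adjusted p 0.0544). Markers of plasmacytoid dendritic cells (pDC) were also higher in CD8+ cDC, 7 of 7 in NOD and 2 of 7 in B6 mice after CpG-A. At rest it was 5 of 7 in NOD and 3 of 7 in B6 mice. In B6 mice 1 of 7 was lower both at rest and after CpG-A. NK markers were lower in CD8+ cDC after CpG-A, 7 of 7 in B6 and 3 of 7 in NOD mice. At rest 3 of 7 NK markers were lower in B6 mice, and in NOD mice 1 of 7 was higher and 0 lower. The part of pDC and NK cells in the subset differences of Irf8 and Irf4 was not tested. For Irf4 the CD8+ minus CD11b+ difference after CpG-A was 0.33 ± 0.14 in NOD mice and 0.23 ± 0.14 in B6 mice, and neither passed (adjusted p 0.0579 and 0.194). At rest Irf4 was lower in CD8+ cDC, at -0.82 ± 0.14 in NOD mice and -1.12 ± 0.14 in B6 mice (adjusted p 7.30e-05 and 1.12e-06). Without replicate 3 of the NOD CpG-A arrays of CD8+ cDC the NOD value of Irf4 after CpG-A passed (0.50, adjusted p 0.00485), as it did after quantile normalization (0.41, adjusted p 0.0242) and centring on the tested genes (0.47, adjusted p 0.0119). The same centring gave 0.40 for Irf4 in B6 mice, which passed (adjusted p 0.0311).

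The subsets differed in how Irf8 and Irf4 responded to CpG-A. For Irf8 the response in CD8+ cDC minus that in CD11b+ cDC was -0.77 ± 0.19 in NOD mice and -1.94 ± 0.19 in B6 mice (adjusted p 0.0190 and 5.97e-07). For Irf4 it was 1.15 ± 0.19 and 1.35 ± 0.19 (adjusted p 7.59e-04 and 4.92e-05). With Irf2, this made 3 of 8 members with a subset-dependent response in NOD mice, where 6.8% of tested genes passed, and 3 of 8 in B6 mice, where 13.4% did. The Irf4 and Irf2 results and the B6 result of Irf8 held under every alternative. The NOD result of Irf8 was lost when the fit used only the 4 groups compared (adjusted p 0.0542) and without replicate 1 of the CpG-A arrays of CD8+ cDC (-0.67, adjusted p 0.0523), replicate 3 of the PBS arrays of CD8+ cDC (-0.71, adjusted p 0.0564) or replicate 2 of the PBS arrays of CD11b+ cDC (-0.64, adjusted p 0.0577). The subset difference of Irf8 also depended on the strain after CpG-A, by 1.53 ± 0.19 (adjusted p 2.17e-05), the 1 of 8 members to pass where 5.3% of tested genes did. In the response tests, which Irf8, Irf4 and Irf2 share, 2 of 7 and 7 of 7 NK markers were lower in NOD and B6 mice. In the strain test of Irf8, 7 of 7 NK markers and 2 of 7 pDC markers were higher. Of the pDC markers, 0 passed in the response test of NOD mice, and 1 was higher and 2 lower in that of B6 mice. The part of NK cells and pDC in these results was not tested. For Irf1 the 0.46 of B6 mice did not pass (adjusted p 0.130), except when only the groups compared were fitted (adjusted p 0.0477). At rest no member's subset difference depended on the strain at the adjusted threshold or at an unadjusted p under 0.05, where 0.882% of tested genes passed. The strain difference in response passed for 2 of 8 members in CD11b+ cDC, where 4.38% of tested genes did, and for 0 of 8 in CD8+ cDC, where 4.02% did, with Irf1, Irf4 and Irf7 under an unadjusted p of 0.05 there.

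**Figure D5:**
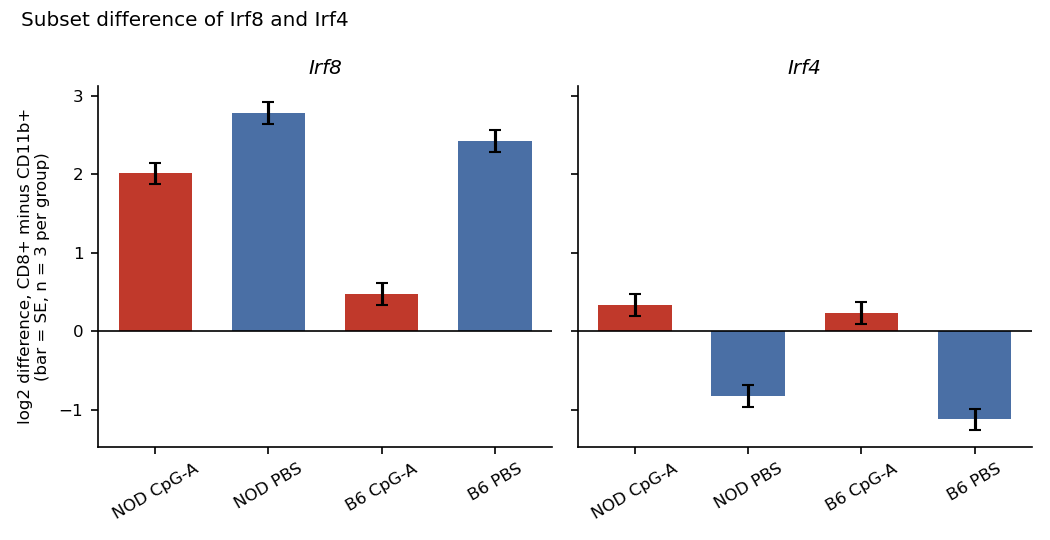
Log2 difference, CD8+ minus CD11b+ (vertical axis), of Irf8 (left) and Irf4 (right) in NOD and B6 mice after CpG-A (red) and PBS (blue); bars start at 0 and the error bar is the SE (n = 3 per group). The Irf8 difference is 2.01 after CpG-A and 2.78 after PBS in NOD mice, and 0.48 after CpG-A and 2.42 after PBS in B6 mice; the Irf4 difference is below 0 after PBS.

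The other members separated the subsets by less. After CpG-A 6 of 8 members passed in NOD mice, where 38.6% of tested genes did, and 4 of 8 in B6 mice, where 37.4% did. At rest 4 of 8 passed in each strain, Irf8 and Irf4 with Irf1 and Irf5, where 21.8% of tested genes passed in NOD mice and 21.7% in B6 mice. Resting Irf1 was higher in CD8+ cDC by 0.65 ± 0.14 in NOD mice and 0.45 ± 0.14 in B6 mice (adjusted p 0.00130 and 0.0230), and resting Irf5 by 0.50 ± 0.11 and 0.33 ± 0.11 (adjusted p 0.00117 and 0.0283). In B6 mice the Irf1 call was lost without replicate 1 or 2 of the CD8+ PBS arrays or replicate 2 of the CD11b+ PBS arrays (adjusted p up to 0.127), and the Irf5 call without replicate 2 or 3 of the CD8+ PBS arrays or replicate 1 or 2 of the CD11b+ PBS arrays (adjusted p up to 0.170). Irf1 was higher in CD8+ cDC after CpG-A by 0.94 and 0.91 in NOD and B6 mice, while Irf2 was lower, at -0.70 in each strain. Irf3 was lower in CD8+ cDC after CpG-A, at -0.35 in NOD mice and -0.44 in B6 mice (adjusted p 0.0162 and 0.00358). The NOD value of Irf3 did not pass without replicate 1 of the CD8+ CpG-A arrays (-0.27, adjusted p 0.0916) or replicate 2 of the CD11b+ CpG-A arrays (-0.31, adjusted p 0.0687), when only the groups compared were fitted (adjusted p 0.105) or after centring on the tested genes (-0.21, adjusted p 0.0818). That centring gave -0.27 for Irf3 in B6 mice, which passed (adjusted p 0.0290). Irf5 was higher in CD8+ cDC of NOD mice after CpG-A by 0.52 ± 0.11 (adjusted p 5.24e-04), and the 0.15 of B6 mice did not pass (adjusted p 0.282) except after centring on the tested genes (0.32, adjusted p 0.0292). Irf9 was lower in CD8+ cDC of NOD mice after CpG-A, at -0.36 ± 0.11 (adjusted p 0.0115). That call was lost without replicate 1 of the CD11b+ CpG-A arrays (adjusted p 0.0505), when only the groups compared were fitted (adjusted p 0.0810) and after centring on the tested genes (-0.22, adjusted p 0.0907). In B6 mice the -0.27 ± 0.11 of Irf9 did not pass (adjusted p 0.0523). It passed, at adjusted p 0.0395 to 0.0497, under 6 of 16 alternatives: quantile normalization, a filter of 12 of 24 arrays, robust eBayes, the pairing of arrays by replicate number (0.0492), and without replicate 2 of the CD8+ arrays or replicate 1 of the CD11b+ arrays. Centring on the tested genes gave -0.10 for it (adjusted p 0.435). Irf7 did not separate the subsets in any strain or injection, with differences of -0.18 to 0.19. In the comparisons after CpG-A, 7 of 7 NK markers were lower in CD8+ cDC of B6 mice and 3 of 7 in those of NOD mice. The part of NK cells in the subset differences of these members was not tested.

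Ranked by group mean, each member had its own order. Irf7 put the 4 CpG-A groups on top, each overlapping the next, and both NOD PBS groups (8.25 in CD8+ and 8.06 in CD11b+ cDC, overlapping) at the bottom, below both B6 PBS groups (8.89 in CD8+ and 9.07 in CD11b+ cDC, overlapping). Irf9 ordered by injection too, with CD8+ CpG-A groups (8.73 in NOD and 8.75 in B6 mice) below CD11b+ CpG-A groups (9.09 in NOD and 9.02 in B6 mice), and PBS groups at 8.08 to 8.33 that overlapped from one to the next. For Irf1 both CD8+ CpG-A groups (11.24 in NOD and 11.51 in B6 mice, overlapping) came first, followed without overlap by CD11b+ cDC after CpG-A (10.30 in NOD and 10.60 in B6 mice), then resting CD8+ cDC at 9.78 in NOD and 9.59 in B6 mice, then resting CD11b+ cDC at 9.13 in NOD and 9.14 in B6 mice. Irf8 was ordered by subset: the 4 CD8+ groups at 10.61 to 11.17, each overlapping the next, then CD11b+ cDC of B6 mice after CpG-A at 10.14, then CD11b+ cDC of NOD mice after CpG-A at 8.90 and resting CD11b+ cDC at 8.32 in NOD and 8.75 in B6 mice, overlapping from one to the next. Irf4 had 6 groups at 7.83 to 8.25 that overlapped from one to the next, with resting CD8+ cDC below them at 7.43 in NOD and 7.01 in B6 mice, which overlap each other. Irf2 was lowest in CD8+ cDC after CpG-A (9.42 in NOD and 9.55 in B6 mice, not overlapping) and highest in CD11b+ cDC after CpG-A (10.12 in NOD and 10.25 in B6 mice, overlapping), with the resting groups between. Irf3 was lowest in the CD8+ CpG-A groups, at 7.90 in NOD and 7.63 in B6 mice, and next lowest in CD11b+ cDC of B6 mice after CpG-A at 8.07. Its other 5 groups, at 8.19 to 8.43, overlapped from one to the next. For Irf5 the CD8+ groups (9.48 to 9.74) lay above the CD11b+ groups (9.04 to 9.39) by mean, but apart from the top group, CD8+ cDC of NOD mice after CpG-A, each overlapped the next.

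The members' profiles over the 8 group means were compared by Pearson's r, as a description over groups that share subset, strain or injection. Irf7 and Irf9 ran most alike (r = 0.95), followed by Irf5 and Irf8 (0.92) and Irf1 and Irf7 (0.87). Irf1 and Irf3 ran opposite to each other (-0.93), and Irf4 and Irf8 partly so (-0.53). Among all other tested genes, the 3 with the profile most like Irf7 were Slfn5, Sp100 and Daxx (r = 0.998, 0.997 and 0.992), and those most like Irf9 were Pnp, Lgals3bp and Ifi214 (0.987, 0.985 and 0.982). Irf1 was matched most closely by Otud5, Icam1 and Ccser2 (0.997, 0.995 and 0.995), and Irf3 by Cdkn2aipnl, Erf and Orc2 (0.995, 0.993 and 0.993). The nearest to Irf5 were 1110017D15Rik, Glcci1 and Lap3 (0.984, 0.978 and 0.976), and to Irf8 Cmtm4, Chac1 and Slc4a1 (0.980, 0.971 and 0.970). Irf2 and Irf4 had looser matches, Ngdn, Ptafr and Ppia for Irf2 (0.970, 0.964 and 0.937) and Trappc10, Pygl and Crebbp for Irf4 (0.943, 0.917 and 0.917). Pearson's r takes no account of the size of a change. Group means of the 3 Irf8 matches ranged over 0.38 to 0.50, against 2.86 for Irf8. Those of the Irf2 matches ranged over 0.40, 2.11 and 0.24, against 0.83 for Irf2. Those of the Irf4 matches ranged over 0.19, 1.98 and 0.15, against 1.24 for Irf4.

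Genes that act before the IRFs were followed as a list of sensors, adaptors and kinases, 16 of them tested. After CpG-A 5 rose and 6 fell in CD8+ cDC of each strain, 5 rose and 0 fell in CD11b+ cDC of NOD mice, and 4 rose and 1 fell in CD11b+ cDC of B6 mice. For this list and those below, the shares of all tested genes in CD8+ cDC were 15.1% higher and 25.5% lower in NOD mice. In B6 mice they were 21.1% and 36.6%. The CD11b+ shares were 9.7% and 5.73% in NOD mice, and 15.9% and 23% in B6 mice. Tlr9, the receptor for CpG DNA, rose in all 4 comparisons, by 1.13 and 1.02 in CD8+ cDC of NOD and B6 mice and by 1.09 and 1.11 in CD11b+ cDC of NOD and B6 mice. Tbk1, the kinase of Irf3, rose by 0.84 and 1.22 in CD8+ cDC and by 0.32 and 0.70 in CD11b+ cDC of NOD and B6 mice. Traf6, the ubiquitin ligase that links Myd88 to Irf7, rose by 0.84 and 1.29 in CD8+ cDC and by 0.44 and 0.85 in CD11b+ cDC of NOD and B6 mice. Unc93b1, which carries Tlr9 to endosomes, fell in CD8+ cDC of NOD and B6 mice (-0.69 and -1.19), and its 0.22 and -0.10 in CD11b+ cDC did not pass. Tlr3, the receptor for double-stranded RNA, fell in CD8+ cDC of NOD and B6 mice (-0.94 and -1.91) and rose by 1.11 in CD11b+ cDC of NOD mice, while its -0.03 in B6 mice did not pass. Myd88, Ticam1 and Cgas passed in none of the 4 comparisons, with differences of -0.19 to 0.48. Tbk1 was also higher in NOD than in B6 mice in all 4 strain comparisons, by 0.30 in both subsets after CpG-A and by 0.68 and 0.67 in CD8+ and CD11b+ cDC at rest. Ikbke was too dim to be tested, and Irak4, Traf3, Chuk and Tasl were not analysed here.

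The interferon receptors and the genes that signal from them made a list of 8 tested genes. After CpG-A 3 rose and 2 fell in CD8+ cDC of each strain, 2 rose and 0 fell in CD11b+ cDC of NOD mice, and 4 rose and 2 fell in CD11b+ cDC of B6 mice. Passing shares over all tested genes were 40.7% and 57.7% in CD8+ cDC and 15.4% and 38.9% in CD11b+ cDC of NOD and B6 mice. Stat2, which binds Irf9 in ISGF3, rose by 2.37 and 2.66 in CD8+ cDC and by 2.13 and 2.31 in CD11b+ cDC of NOD and B6 mice. Ifngr1, a chain of the interferon-gamma receptor, fell in CD8+ cDC of NOD and B6 mice (-2.02 and -2.78) and in CD11b+ cDC of B6 mice (-1.29), and its -0.50 in NOD mice did not pass. Tyk2, a kinase of the type I interferon receptor, rose in all 4 comparisons, by 0.59 to 1.23. The receptor chains Ifnar1 and Ifngr2 passed in none, at -0.18 to 0.10.

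Transcription factors that bind DNA with IRFs or set cDC lineages made a list of 15 tested genes. After CpG-A 4 rose and 2 fell in CD8+ cDC of NOD mice and 5 rose and 4 fell in those of B6 mice. In CD11b+ cDC 4 rose and 0 fell in NOD mice, and 7 rose and 2 fell in B6 mice. Of all tested genes 40.7% and 57.7% passed in CD8+ cDC and 15.4% and 38.9% in CD11b+ cDC of NOD and B6 mice. Spib, an Ets factor that can pair with Irf4 and Irf8, rose by 0.93 and 2.07 in CD8+ cDC of NOD and B6 mice and by 0.80 in CD11b+ cDC of B6 mice, and its 0.56 in NOD mice did not pass. Batf2, a basic leucine zipper factor that can pair with IRFs, rose by 0.55 and 0.99 in CD8+ cDC and by 1.23 and 1.65 in CD11b+ cDC of NOD and B6 mice. Relb, an NF-kB subunit, rose by 1.41 and 1.79 in CD8+ cDC and by 0.95 and 1.11 in CD11b+ cDC of NOD and B6 mice. Nfil3, a factor needed for cDC1 and NK cell development, rose by 1.33 and 2.09 in CD8+ and CD11b+ cDC of B6 mice, and its -0.10 and 0.16 in NOD mice did not pass. After CpG-A Nfil3 was lower in NOD than in B6 mice, at -2.01 in CD8+ cDC and -2.16 in CD11b+ cDC. Spi1, the Ets partner PU.1, fell by 0.34 in CD8+ cDC of B6 mice and passed in no other comparison, at -0.07 to 0.29. Tcf4, Zeb2, Klf4 and Runx3 passed in none, at -0.66 to 0.36.

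Genes that restrain IRF signalling, with the Irf2-binding proteins, made a list of 9 tested genes. After CpG-A 4 rose and 2 fell in CD8+ cDC of NOD mice, 5 rose and 2 fell in those of B6 mice, 4 rose and 1 fell in CD11b+ cDC of NOD mice, and 5 rose and 2 fell in those of B6 mice. Usp18, which blocks the type I interferon receptor, rose by 3.21 and 3.52 in CD8+ cDC and by 2.66 and 2.95 in CD11b+ cDC of NOD and B6 mice. Trim28, a corepressor that acts on Irf7, fell in all 4 comparisons (-0.80 to -0.39). Irf2bp2, a corepressor that binds Irf2, fell in CD8+ cDC of NOD and B6 mice (-0.40 and -0.63) and in CD11b+ cDC of B6 mice (-0.47), and its 0.12 in NOD mice did not pass. Irf2bp1 and Irf2bpl passed in none, at -0.36 to 0.20.

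Known IRF target genes made a list of 19 tested genes, nearly all of which rose. The count was 18 higher and 1 lower in CD8+ cDC of each strain, 17 higher and 0 lower in CD11b+ cDC of NOD mice, and 17 higher and 1 lower in those of B6 mice. The median difference of the list was 2.61 and 2.83 in CD8+ cDC and 3.37 and 2.89 in CD11b+ cDC of NOD and B6 mice. The list was chosen with earlier results of these data known. A gene bright only on the 3 CpG-A arrays of 1 group could enter the test through them. The counts and medians therefore only describe this list. Cxcl10, an interferon-inducible chemokine gene, rose by 3.63 and 4.28 in CD8+ cDC and by 5.08 and 4.82 in CD11b+ cDC of NOD and B6 mice. Il12b, which encodes a subunit of IL-12, rose by 1.54 and 0.48 in CD8+ cDC and by 3.59 and 4.18 in CD11b+ cDC of NOD and B6 mice. Il6 rose by 3.01 and 4.21 in CD8+ cDC and by 3.42 and 4.80 in CD11b+ cDC of NOD and B6 mice. The 1 gene that fell was Ciita, the activator of MHC class II genes, in CD8+ cDC of NOD and B6 mice (-1.13 and -1.86) and in CD11b+ cDC of B6 mice (-1.23), and its -0.25 in NOD mice did not pass. Ifna2 rose by 0.55 and 0.44 in CD8+ cDC of NOD and B6 mice, and its -0.38 and -0.39 in CD11b+ cDC did not pass. Ifnb1, Ifna4, Il12a and Nos2 were too dim to be tested, and Isg15 and Gbp2 were not analysed here.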

How the data were processed

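The deposited log2 values, 1.92 to 14.1 over 35556 probe sets on 24 arrays, were prepared by the authors: the submitters' processing notes list RMA and Partek, without versions. RMA corrects background, brings the arrays to one distribution and summarises each probe set. Array medians were 5.79 to 5.87, so a shift of most genes in one group would be hidden. The array model is unsettled, since the one in the labels differs from the one whose annotation the probe sets match. Of 23410 annotated probe sets, 21789 had 1 symbol and 1621 several. For 21698 of those with 1 symbol, the symbol was taken from RefSeq by gene ID, whether or not it differed. Genes above the array's median on at least 3 of 24 arrays were tested, 11228 of 19938.

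A mean per group was fitted with limma 3.58.1 in R 4.3.3 (eBayes with trend, two-sided, 16 residual degrees of freedom). Benjamini-Hochberg adjustment ran over all tested genes within each of 18 contrasts, with a threshold of 0.05. They are 12 pairs of groups and 6 differences between pairs, and pairs that share a group are not independent. The fit was tested on simulated data. The named genes are the members, the 3 tested genes most like each over 8 group means, and a choice from each pathway list. That choice did not go by size of change alone. In CD8+ cDC of B6 mice Tlr4 (-1.23), Tlr7 (1.21) and Ikzf1 (-1.11) also passed after CpG-A and are not described above. Members and lists were chosen with earlier results of these data known. Alternatives changed the filter, probe sets, scaling, empirical Bayes settings, arrays and replicate block.

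The replicate numbers come from the titles. Same-numbered arrays deviated together, every correlation being over 0.1, in 8 of the 12 pairs of groups: CpG-A against PBS in CD8+ and CD11b+ cDC of NOD mice (0.18 to 0.34 and 0.16 to 0.22), NOD against B6 in CD8+ cDC (0.24 to 0.54 after CpG-A and 0.20 to 0.29 at rest), and CD8+ against CD11b+ cDC in all 4 comparisons (0.10 to 0.44). The number of arrays and the signal over background limit the precision.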

Additional observations from a re-analysis of the deposited data

Results flagged for a closer look

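In 9 of 48 tests of a difference between pairs of groups, a response or subset difference of an IRF differed between the subsets or strains. Over all tested genes 0.882% to 13.4% passed in these contrasts. In CD11b+ cDC the response to CpG-A in NOD mice minus that in B6 mice was 0.81 ± 0.20 for Irf7 and -0.80 ± 0.19 for Irf8 (adjusted p 0.0182 for each). The response in CD8+ cDC minus that in CD11b+ cDC was -0.67 ± 0.11 in NOD mice and -0.57 ± 0.11 in B6 mice for Irf2. The same difference was 1.15 ± 0.19 in NOD mice and 1.35 ± 0.19 in B6 mice for Irf4. For Irf8 it was -0.77 ± 0.19 in NOD mice and -1.94 ± 0.19 in B6 mice. After CpG-A the CD8+ minus CD11b+ difference of Irf8 was larger in NOD than in B6 mice by 1.53 ± 0.19 (adjusted p 2.17e-05). The last of these, the B6 values of Irf2, Irf4 and Irf8 and both strain differences in response in CD11b+ cDC share a group. It is the CD11b+ cDC of CpG-A-injected B6 mice, in which 7 of 7 NK markers were raised over PBS. In the strain difference in response, 5 of 7 NK markers were lower. The part of NK cells in these results was not tested.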

How the results depend on the processing

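Of 144 values of a member in a contrast, 55 passed, 39 of these passed under every alternative run (left-out arrays being those of the groups compared), and 0 called values changed sign. The calls after CpG-A numbered 25 of 32 (23 to 25 over the alternatives, 23 to 25 with 1 array left out). Those between subsets numbered 18 of 32 (16 to 20 and 16 to 20) and those between strains 3 of 32 (3 to 5 and 2 to 7). Those on differences between pairs of groups numbered 9 of 48 (9 in each alternative, and 7 to 9). Shares of all tested genes that passed ran from 15.4% to 57.7% after CpG-A and from 21.7% to 38.6% between subsets. They ran from 3.62% to 23.2% between strains and from 0.882% to 13.4% on differences between pairs. The 5 strain calls came with centring on the tested genes, added after seeing the data, which added Irf2 in CD8+ cDC after CpG-A (-0.25) and Irf8 in resting CD11b+ cDC (-0.42). Without replicate 1 of the NOD CpG-A arrays of CD8+ cDC there were 7 strain calls, Irf1, Irf3 and Irf8 in CD8+ cDC after CpG-A among them. This count covers all 32 tests, also those between groups without that array, because all groups share 1 estimate of the spread.

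The replicate block changed 2 member calls, Irf9 between the subsets in B6 mice after CpG-A (-0.27, adjusted p 0.0492) and Irf8 between the strains in resting CD11b+ cDC (-0.44, adjusted p 0.0285), where the numbers were not shown to pair, and changed no other. Over all tested genes the block moved the calls on the strain difference in response in CD8+ cDC to 728, against 451. Fitting only the groups compared moved the count to 2584 from 4567 for CpG-A in CD8+ cDC of NOD mice, to 390 from 2270 between the strains in CD8+ cDC after CpG-A, and to 2554 from 4335 between the subsets in NOD mice after CpG-A. For differences in response it moved the counts to 164 from 451 (strain, CD8+), 945 from 492 (strain, CD11b+) and 303 from 764 (subset, NOD). For the dependence of the subset difference on the strain it moved them to 181 from 99 (at rest) and 266 from 595 (after CpG-A). The stricter filter, 12 of 24 arrays, left 51 of those 99.

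Centring on the tested genes turned the split of higher and lower calls to 2370 and 1910 from 1700 and 2867 (CpG-A, CD8+ NOD), 4033 and 2778 from 2370 and 4105 (CD8+ B6) and 2309 and 1909 from 1782 and 2582 (CD11b+ B6). Between the strains after CpG-A it gave 936 and 1452 in place of 1390 and 880 in CD8+ cDC, and 1259 and 1412 in place of 1565 and 1035 in CD11b+ cDC. Between the subsets after CpG-A it gave 2414 and 1930 in place of 1624 and 2711 in NOD mice, and 2467 and 1841 in place of 1441 and 2755 in B6 mice. For the difference in response it gave 219 and 293 in place of 270 and 222 between the strains in CD11b+ cDC, and 441 and 348 in place of 301 and 463 (NOD) and 979 and 719 in place of 656 and 846 (B6) between the subsets. The causes were not tested.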
